A study of Homo sapiens with 24 samples.

Results

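A set of 38 HOX genes from the 4 human clusters, HOXA, HOXB, HOXC and HOXD, was followed at its promoters in EndoC-βH3 cells, out of 19702 protein-coding genes of GENCODE release 44. Members were chosen by name and are not every HOX gene, and each was given the H3K4me3 regions that overlapped 2 kb on either side of any start site of its protein-coding transcripts, with the highest region taken as the promoter value. EndoC-βH3 is a human beta-cell line of fetal origin whose growth depends on 2 transgenes, SV40 large T and hTERT, and a tamoxifen-activated Cre can remove them. H3K4me3 was profiled by MINT-ChIP, a multiplexed chromatin immunoprecipitation, in 4 non-senescent control samples and 4 samples made senescent by 4-hydroxytamoxifen for 3 weeks, each of 500000 cells and labelled as wild type. The table gives 1 mean normalized count per region over the samples of both states, so the values carry no spread between samples, and the states were not compared here. The table lists called regions, and a promoter without a listed region is not shown to lack the mark.

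HOX genes encode homeodomain transcription factors that give cells their position along the head-to-tail axis. Within a cluster the genes lie in the order in which they are used, from low paralog numbers (anterior) to high ones (posterior). H3K4me3 is deposited by COMPASS-type complexes around the start sites of active or poised genes, whereas Polycomb complexes keep HOX clusters silent in cells that do not use them.

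HOX promoters rarely had an H3K4me3 region, and those regions were low and narrow. Of the 38 members, 14 (36.8%) had a region, against 14586 of the 19702 protein-coding genes (74.0%). The median HOX promoter region had a mean normalized count of 2.16, and the median of all 12836 distinct promoter regions was 45.7. Divided by region width, the HOX median was 4.32 normalized counts per kb, or 23.4% of the all-promoter median of 18.5 per kb, and 2.61% of promoter regions lay below it. Of the 14 HOX regions, 0 reached the all-promoter median per kb, and 52.1% of all genes with a region did. Only HOXD1 and HOXB13 reached the lower quartile of 11.9 per kb. The regions were 500 bp wide in 11 of 14 cases, the widest was 1182 bp, and the median of all promoter regions was 2396 bp. Exactly 500 bp was also the width of 37.1% of all 97545 regions but of 4.75% of promoter regions. A total of 7 HOX promoter regions had a mean count under 2 and 11 had one under 4, and 3 reached the median of all regions in the table, 4.4.

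**Figure D1:**
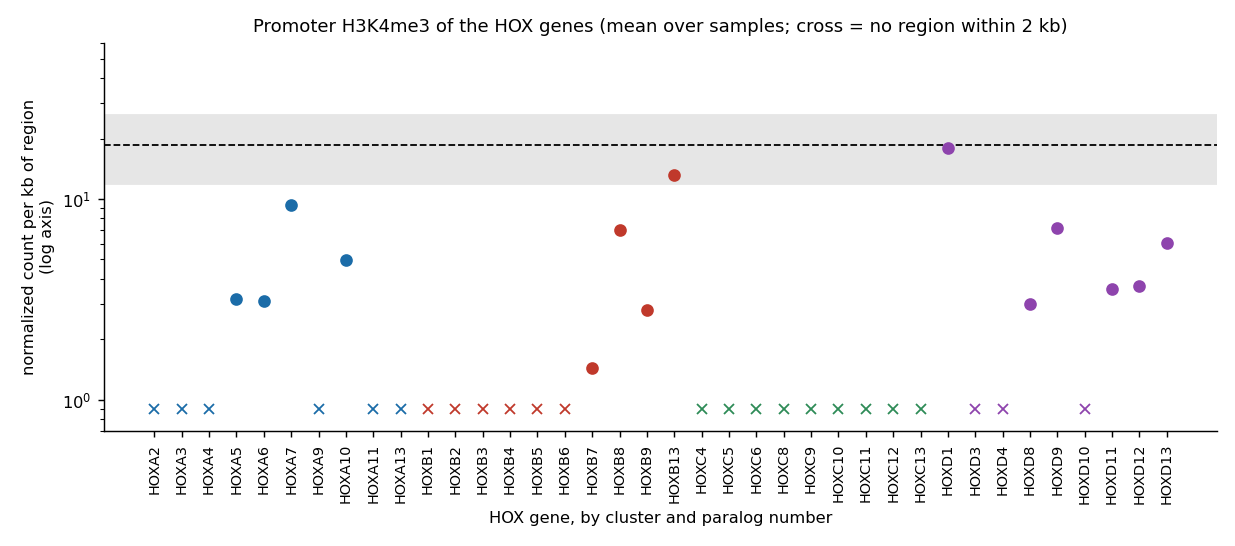
Promoter H3K4me3 of the 38 HOX genes, as mean normalized counts per kb of region on a log axis; each dot is the mean over samples, crosses mark genes without a region within 2 kb and have no value on the axis, the dashed line is the all-promoter median (18.5) and the grey band its quartiles (11.9 and 26.3). All 14 dots lie below the line, HOXD1 and HOXB13 within the band, and all 9 HOXC genes are crosses.

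The upstream sequences of 4 members are shown to set promoters inside a region beside CpG-rich promoters outside one. RefSeq (GRCh38.p14) gave promoter sequences for 20 of the 38 members, in 27 entries, all identical to hg38. Each line holds the 250 bases upstream of the start in the direction of transcription, with CpG dinucleotides in capitals. HOXA6 (chr7:27147775-27148024, minus strand) lay wholly inside a listed region, with 27 CpGs, and HOXD11 (chr2:176107030-176107279, plus strand) had 229 of its 250 bases inside one, with 23 CpGs. HOXA13 (chr7:27200092-27200341, minus strand), with 40 CpGs, and HOXA9 (chr7:27165538-27165787, minus strand), with 20, had no base inside a region. None of the 4 stretches overlaps an annotated exon.
HOXA6: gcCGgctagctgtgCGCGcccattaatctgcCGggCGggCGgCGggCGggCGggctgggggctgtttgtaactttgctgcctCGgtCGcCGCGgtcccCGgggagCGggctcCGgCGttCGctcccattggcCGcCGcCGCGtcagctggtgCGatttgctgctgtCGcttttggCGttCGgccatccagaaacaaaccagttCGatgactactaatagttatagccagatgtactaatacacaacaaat
HOXD11: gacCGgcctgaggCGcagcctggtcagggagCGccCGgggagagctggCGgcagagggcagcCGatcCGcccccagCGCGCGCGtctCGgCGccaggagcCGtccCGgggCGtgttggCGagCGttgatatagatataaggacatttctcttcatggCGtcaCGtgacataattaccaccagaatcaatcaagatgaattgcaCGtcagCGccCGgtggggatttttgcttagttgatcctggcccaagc
HOXA13: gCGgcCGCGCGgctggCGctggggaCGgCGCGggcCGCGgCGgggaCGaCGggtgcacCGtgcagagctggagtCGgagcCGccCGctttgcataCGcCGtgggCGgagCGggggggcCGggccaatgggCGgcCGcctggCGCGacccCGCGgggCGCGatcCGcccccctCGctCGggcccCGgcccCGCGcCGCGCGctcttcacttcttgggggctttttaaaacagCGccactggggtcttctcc
HOXA9: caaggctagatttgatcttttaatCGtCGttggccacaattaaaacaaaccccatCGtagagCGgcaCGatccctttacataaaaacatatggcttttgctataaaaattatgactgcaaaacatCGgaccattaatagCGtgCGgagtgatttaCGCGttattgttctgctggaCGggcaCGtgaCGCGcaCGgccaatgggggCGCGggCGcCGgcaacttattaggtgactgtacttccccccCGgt

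HOXA13 thus had the most CpGs of these 4 and no region, and its closest region lay 10285 bp away. The 4 are picked examples. HOXD4 (4 CpGs) and HOXB1 (7) also had no promoter region, and HOXA7 and HOXD13, which had one, had no upstream base inside a region. The regions over the HOXA6 and HOXD11 stretches were low, at 1.54 and 1.78 counts. Over all HOX entries the median was 19 CpGs in the 250 bases, beside 17 over all 21574 RefSeq promoters of protein-coding genes. On either strand, CCAAT was found in 18 of the 27 HOX entries and in 32.9% of all, and TATAAA in 5 of 27 and 9.0% of all. GGGCGG was found in 13 of 27 entries and 54.2% of all. HOXA3 alone gives 7 of the 27 entries, and HOXC4 and HOXC5 share 1 sequence, so entries are not separate genes.

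HOXA, on chromosome 7, had a region at 4 of the 10 members followed, HOXA5, HOXA6, HOXA7 and HOXA10. HOXA7 was the highest, at 5.41 mean normalized counts and 9.34 per kb (chr7:27154747-27155326), over coding, untranslated and HOXA-AS3 exon sequence. That region lay 1349 bp from the closest start of a protein-coding HOXA7 transcript and 672 bp from a start of another HOXA7 transcript. HOXA10, which acts in the patterning of the uterus, followed with 2.48 counts and 4.96 per kb in a region within its intron (chr7:27178981-27179481). That region lay 780 bp from an alternative start and was shared with the readthrough gene ENSG00000257184. HOXA5, a gene of lung development, had 1.58 counts and 3.16 per kb over its start (chr7:27143477-27143977). HOXA6 had a pair of regions, one over its start with 1.54 counts and one upstream, in introns, with 1.54 counts and 3.09 per kb (chr7:27149234-27149734). HOXA2, HOXA3, HOXA4, HOXA9, HOXA11 and HOXA13 had none, with the closest region 2164 to 40794 bp away. The low-numbered members HOXA2 to HOXA4 and the posterior HOXA11 and HOXA13 thus lacked promoter regions. So did HOXA9, which lies between HOXA7 and HOXA10. HOXA10 was the only one of the 14 reached through a start other than the canonical one.

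HOXB, on chromosome 17, also had a region at 4 of 10 members, all from HOXB7 upwards. HOXB13, the most posterior member and a gene of the prostate and tail end of the body, stands apart from the others by a long gap. It was the highest, at 8.43 counts and 13.2 per kb, in a 640 bp region over its start and untranslated sequence (chr17:48728723-48729363). HOXB8 had 3.49 counts and 6.99 per kb (chr17:48617182-48617682) in a region 1890 bp from its start and within an intron of HOXB7. HOXB9 had 1.4 counts and 2.80 per kb in its coding exon (chr17:48625715-48626215). HOXB7 had the lowest HOX promoter value, 0.722 counts and 1.44 per kb (chr17:48610345-48610845), also in a coding exon. HOXB1 to HOXB6, which include the hindbrain genes HOXB1 and HOXB2, had no region within 2 kb of a start of a protein-coding transcript. Their closest regions lay 2501 to 54618 bp from such a start. A region of 2.25 counts did overlap coding and untranslated HOXB6 sequence (chr17:48596280-48596780). It lay over a start of the noncoding gene HOXB-AS3 and 354 bp from a start of a HOXB6 transcript not classed as protein-coding. From the start of HOXB5 it was 2501 bp away, and from every protein-coding HOXB6 start more than 2 kb. The absence of HOXB6 from the members with a region thus depended on counting protein-coding transcripts only.

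HOXC, on chromosome 12, had no promoter region at any of its 9 members. Its closest regions lay 2272 to 26337 bp from a start. The highest of the 3 regions in the cluster (chr12:54005956-54006713) lay in an intron of HOXC6, 2272 bp from the start of HOXC8, a gene of thoracic identity, and had 11.8 counts and 15.6 per kb. The other two were low, with 2.07 counts between genes (chr12:53980849-53981508) and 1.65 counts in an intron of the noncoding RNA HOTAIR (chr12:53964384-53964884). HOXC8 was therefore just outside the 2 kb limit, as were HOXA3 (2164 bp) and HOXB5 (2501 bp), and HOXB8 (1890 bp) and HOXD12 (1647 bp) were just inside it.

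HOXD, on chromosome 2, had a region at 6 of 9 members and the highest HOX value. HOXD1, its anterior end, had 21.2 counts and 17.9 per kb in the 1182 bp region (chr2:176187252-176188434), 234 bp upstream of its start and over an exon of the antisense noncoding RNA HAGLR. HAGLR runs the other way and starts inside this region, so the level cannot be assigned to HOXD1 rather than HAGLR. A second HOXD1 region within the gene had 3.35 counts (chr2:176189291-176189971). The other 5 members with a region, HOXD8 to HOXD13, stood between 3.00 and 7.17 per kb, and their levels did not follow their order along the cluster. HOXD9 had 3.59 counts and 7.17 per kb over its start (chr2:176122538-176123038). HOXD13, a gene of the digits, had 3.01 counts and 6.02 per kb in its coding exon (chr2:176093181-176093681). HOXD12 had 1.84 counts and 3.69 per kb between genes (chr2:176097648-176098148). HOXD11 had 1.78 counts and 3.56 per kb over its start (chr2:176107051-176107551). HOXD8 had 1.5 counts and 3.00 per kb in a coding exon (chr2:176130925-176131425). HOXD3, HOXD4 and HOXD10 had none, with the closest region 5532 to 20125 bp from a start of a protein-coding transcript. With 1 mean per region, whether neighbours in these orders differ cannot be told.

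**Figure D2:**
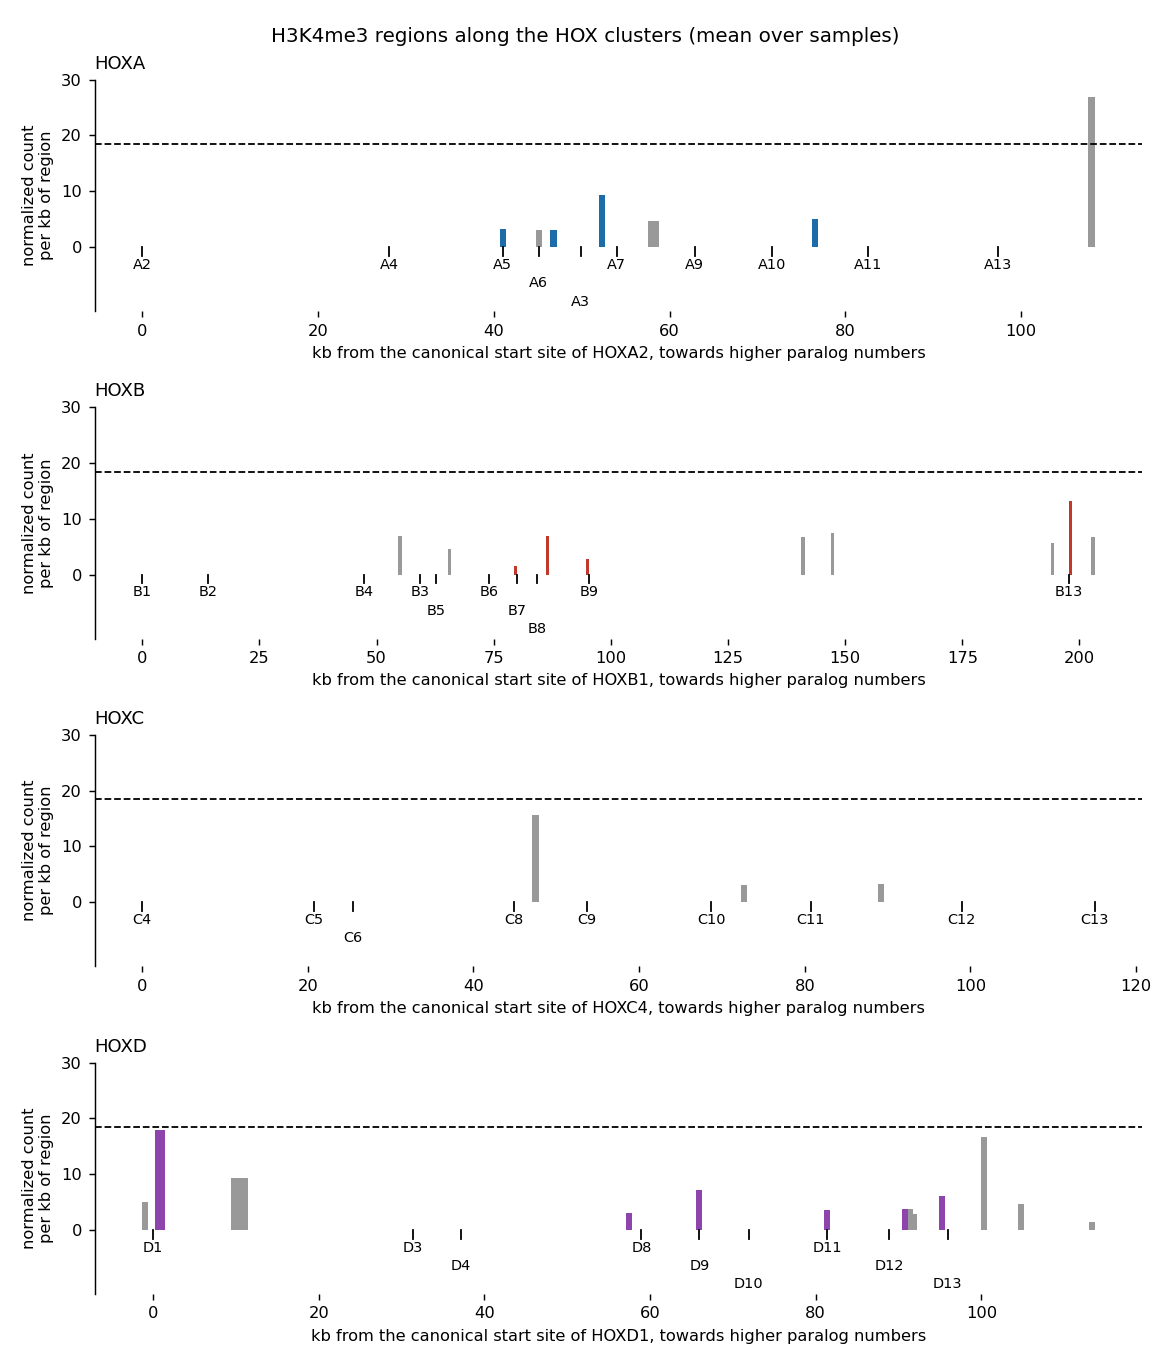
H3K4me3 regions along each HOX cluster and 20 kb beyond, with the distance in kb from the canonical start of the member with the lowest paralog number on the horizontal axis and normalized counts per kb of region on the vertical axis. Coloured bars are the regions taken as a promoter value, grey bars the others (drawn at least 0.7 kb wide), ticks are canonical starts and the dashed line is the all-promoter median of 18.5; only a region beyond HOXA13 (26.9) crosses it.

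By position across the clusters, 1 of 7 anterior members (paralogs 1 to 3), 6 of 15 central ones (4 to 8) and 7 of 16 posterior ones (9 to 13) had a region. The median level was 3.12 per kb in the central and 4.96 per kb in the posterior group, and the anterior member was HOXD1. Of the 13 paralog groups, 3 (2, 3 and 4) had no member with a region, group 7 had a region at both members, HOXA7 and HOXB7, and the other 9 were mixed. In group 13 HOXB13 (13.2 per kb) and HOXD13 (6.02) had a region and HOXA13 and HOXC13 had none. In group 9 HOXD9 (7.17) and HOXB9 (2.80) had one and HOXA9 and HOXC9 had none. In group 8 HOXB8 (6.99) and HOXD8 (3.00) had one and HOXC8 had none.

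The clusters also held regions away from the chosen promoters. The spans from the first to the last member held 28 regions, 14 of which were the promoter value of a member and 17 of which were 500 bp wide. Regions covered 3.75% of the 99.7 kb of HOXA, 2.28% of the 200.2 kb of HOXB, 1.63% of the 117.2 kb of HOXC and 7.57% of the 98.2 kb of HOXD, and 3.52% of the genome. Summed over the span, the counts came to 0.179 per kb in HOXA, 0.125 in HOXB, 0.132 in HOXC and 0.597 in HOXD, beside 0.476 genome-wide. Regions were clipped at the span ends. The HOXB span ends at 48728750, so most of the HOXB13 region (48728723-48729363), the highest of HOXB, was left out of its coverage and sum. With the span extended by 1 kb, 2.56% of HOXB was covered. The order of HOXB and HOXC in summed counts therefore cannot be read. Per covered kb the means were 4.77, 5.51, 8.10 and 7.89, in the same order, and 13.5 genome-wide. HOXD and, by a small margin, HOXA were thus above the genome in coverage. Only HOXD was above it in summed signal, and all 4 clusters were below it per covered kb. HOXD did not exceed its surroundings in summed signal. The 100 kb on its HOXD13 side had 1.67 counts per kb and 7.63% covered, and the 100 kb on its HOXD1 side 0.623 and 3.285%. HOXA lay between its 100 kb flanks in summed counts (0.0409 and 0.257 per kb) and above both in coverage (1% and 1.36%). HOXB lay below both of its flanks (0.278 and 0.607 counts per kb, 3.73% and 6.74% covered). HOXC lay above both of its flanks (0.0316 and 0 counts per kb, 0.531% and 0% covered). The HOXD sum rested on the 2 regions over a start of HAGLR (21.2 and 19.1 counts). Without them, an alternative chosen after seeing the data, HOXD stood at 0.187 counts per kb of span, below the genome, with 4.26% covered.

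Of 27 long noncoding RNA genes that start in the spans 6 had a region, against 38.2% of all such genes in the annotation, and of 8 microRNA genes 2 had one (MIR3185 and MIR7704), against 26.9% of all. The highest region of HAGLR and of MIR7704 was the HOXD1 promoter region again, and that of HOXA-AS3 was the upstream HOXA6 region. The HAGLR and HAGLROS region (chr2:176177221-176179289) had 19.1 counts and 9.22 per kb over 2068 bp, 9379 bp from HOXD1. Outside the HOXA span, a region over an exon of the noncoding gene ENSG00000286323 (chr7:27210376-27211033) had 17.7 counts and 26.9 per kb, 10285 bp from HOXA13. Beyond HOXD13, an intergenic region 4105 bp away (chr2:176088109-176088616) had 8.45 counts and 16.7 per kb.

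Most HOX promoters were CpG-rich. A promoter was called CpG-island-like when the 500 bp on either side of the canonical start had an observed-to-expected CpG ratio of at least 0.6 and a GC content of at least 55%. By this measure 29 of 38 HOX promoters were CpG-island-like, and 12 of these 29 had a region, against 11000 of all 11869 CpG-island-like genes (92.7%). Of the 9 other HOX members 2 had a region, and 45.8% of the 7833 other genes did. The median CpG ratio was 0.867 for HOX members with a region, 0.685 for those without and 0.726 for all genes. The range over the 38 was 0.338 to 1.02.

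**Figure D3:**
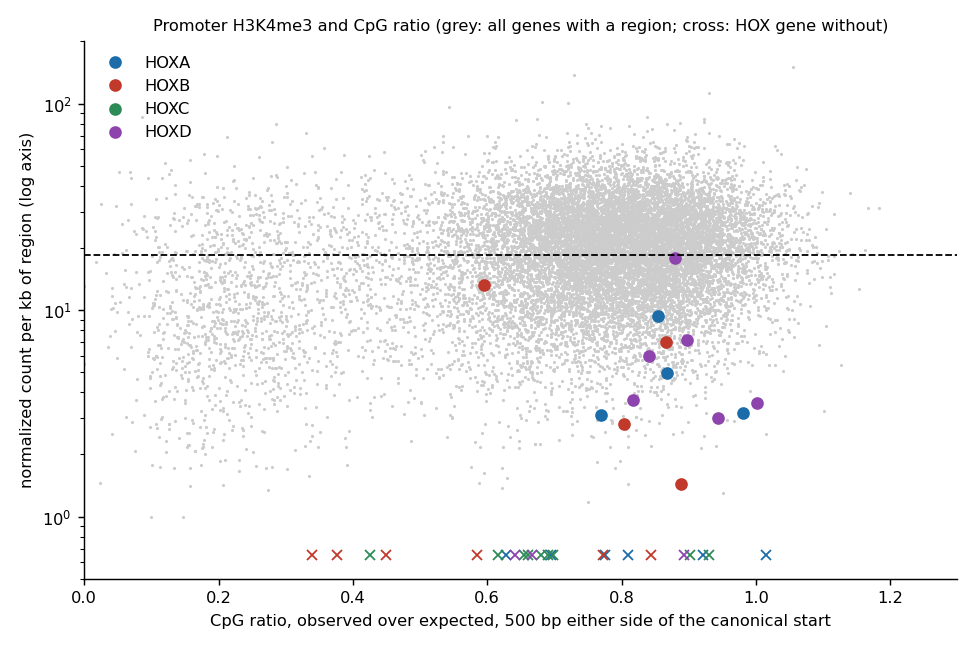
Promoter level in normalized counts per kb of region (log axis) against the CpG ratio around the canonical start, with all genes that have a region in grey, HOX genes in colour and HOX genes without a region as crosses at the bottom, where they have no value; the dashed line is the all-promoter median. The 14 HOX genes with a region lie at or below 17.9 per kb, and the crosses spread from a ratio of 0.338 to 1.02.

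Other gene lists were read at the same threshold, at which 74.0% of all protein-coding genes had a region. Of the 9 TALE cofactors, which are homeodomain partners of HOX proteins, 7 had a region, with a median of 27.6 per kb. All 23 chromatin regulators of HOX genes (COMPASS, demethylases, Polycomb and CTCF) had one, with a median of 18.8. Retinoic acid receptors and enzymes, which act upstream of HOX genes, had one at 7 of 9, with a median of 16.3. ParaHox genes, the sister group of HOX genes, had one at 4 of 6, with a median of 14.9. PDX1, the beta-cell ParaHox gene, had 260.5 counts and 22.5 per kb over 11552 bp. The TALE (77.8%), retinoic acid (77.8%) and ParaHox (66.7%) shares were thus near that of all genes. A list of 50 other developmental patterning factors, 43 of which were CpG-island-like, had a region at 30 and a median of 11.4 per kb. Of these 43, 28 had a region, against 92.7% of all CpG-island-like genes, so a share below that of all such genes was not particular to HOX genes.

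**Figure D4:**
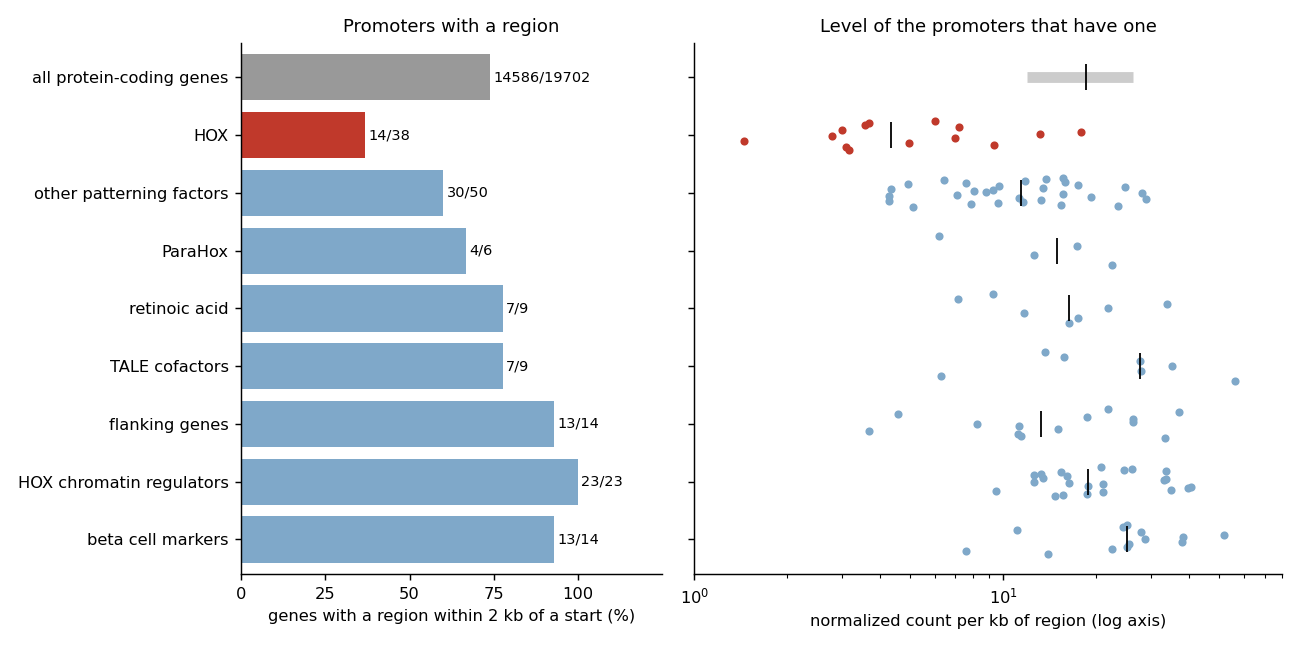
Left, the percentage of genes in each list with a region within 2 kb of a start, with counts beside the bars; right, normalized counts per kb of region (log axis) for each gene that has one, with a vertical tick at the list's median and, for all protein-coding genes, a grey bar from quartile to quartile. Among the lists drawn, which leave out the markers of cells other than beta cells, HOX genes have the lowest share (36.8%) and the lowest median (4.32 per kb).

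The genes around the clusters differed from one another. Of 14 such genes 13 had a region, with a median of 13.2 per kb. Beside HOXD, LNPK (144 counts, 37.1 per kb) and MTX2 (60.6 counts, 21.8 per kb) stood above the all-promoter median, and EVX2, a homeobox gene next to HOXD13, had 2.28 counts and 4.56 per kb. Beside HOXA, SKAP2 had 103 counts and 33.4 per kb and the homeobox gene EVX1 8.04 counts and 11.4 per kb, with 22.6 counts and 11.2 per kb at HIBADH farther out. Beside HOXB, TTLL6 had 23.8 counts and 15.0 per kb, CALCOCO2 24.5 counts and 11.2 per kb, and SKAP1 3.32 counts and 3.67 per kb. PRAC1, which lies inside the HOXB span before HOXB13, had no region. Around HOXC, CBX5 and HNRNPA1 shared a region of 255.0 counts and 26.2 per kb, CALCOCO1 had 49.7 counts and 18.7 per kb, and SMUG1 had 19.7 counts and 8.25 per kb.

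The cell type on the label was checked against its markers. Of 14 beta-cell markers 13 had a region (92.9%), against 74.0% of all protein-coding genes, with a median of 25.2 per kb. MAFA, a regulator of insulin expression, had none within 2 kb. INS had 24.7 counts and 14 per kb, and NKX2-2 372 counts and 25.4 per kb. Alpha-cell markers had a region at 2 of 3, with 31.5 per kb at IRX2, above the beta-cell median, and 6.99 at GCG. Delta-cell markers had one at 2 of 2, with 11 per kb at SST and 12.2 at HHEX. Exocrine markers had one at 4 of 5, with a median of 4.73 per kb, and mesenchyme, endothelium and immune markers at 1 of 3 each. These were COL1A1 (6.28 per kb), PECAM1 (15.3 per kb) and CD68 (31.9 per kb), the last above the beta-cell median. PTPRC, CD3E, CDH5, VWF, COL3A1 and PDGFRB had none. CD68 had 2 regions within 2 kb, and the higher was taken (chr17:7582229-7585270). Whether that region belongs to CD68 or to a neighbouring gene was not checked. The part of other cells in the HOX values was not tested.

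**Figure D5:**
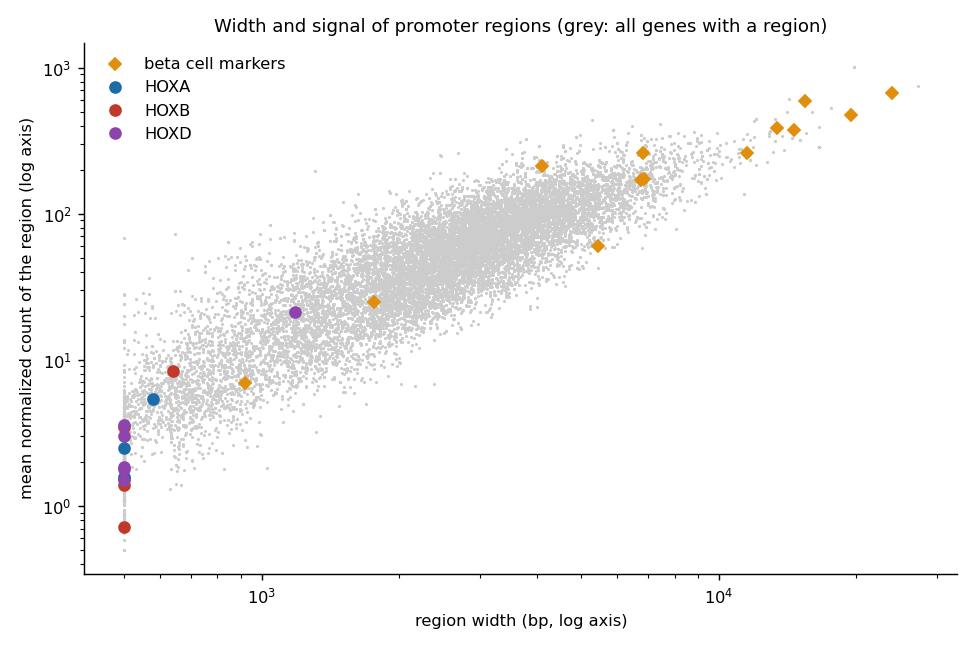
Mean normalized count of each promoter region against its width in bp (both axes log), with all genes that have a region in grey, beta-cell markers as diamonds and HOX genes as coloured dots. The HOX dots stand at 500 to 1182 bp and 0.722 to 21.2 counts, at the lower left, and most beta-cell markers lie at the upper right.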

How the data were processed

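H3K4me3 MINT-ChIP of 8 EndoC-βH3 samples (4 per state) was used, and the 16 samples of the other marks were not used here. Per the labels and methods, the authors mapped reads onto hg38 using Bowtie2, with samtools for handling, HOMER for peak calling and DESeq2 for their contrast of the states. How peaks were merged and counted is not given in the sources used here. The deposited signal of a region is the mean normalized count over all samples, and depth per sample is unknown. The other 5 columns hold the authors' comparison of the states (log2 fold change, its error, statistic and p-values) and were not used, so no test was made.

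Start sites came from GENCODE release 44, without the Y copies of pseudoautosomal genes, and coordinates are as deposited, since whether they count from 0 or 1 is not stated. Levels were divided by region width. The genes named are all members, the 14 flanking genes and, chosen after their values were seen, PDX1, INS, NKX2-2, MAFA, markers of cells other than beta cells and noncoding genes. Members and lists were chosen with earlier results of these data known. The assignment was tested on simulated data. Python 3.11.15, numpy 2.4.6, pandas 2.3.3 and matplotlib 3.10.9 were used.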

Additional observations from a re-analysis of the deposited data

How the results depend on the processing

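Values are percentages of the all-promoter median under the same setting, unless said otherwise, and each setting changed 1 choice except the fixed window. With 1 kb instead of 2 kb, 11 members had a region, HOXB stood at 15.0% and the highest HOXA member was paralog 10. With 5 kb, 20 had one and the highest in HOXA was paralog 3. Only regions covering a start left 5 members, HOXB at 68.0%, and paralogs 5 in HOXA and 9 in HOXD highest. The nearest region in place of the highest put 1 member, HOXD1, at or above the median. Only regions at or above the table's median count left 3 members, with medians of 68.2% in all, 48.3% in HOXA, 68.2% in HOXB and 92.6% in HOXD, and coverage of 1.74% of HOXA, 0.773% of HOXB, 0.646% of HOXC and 3.31% of HOXD. A fixed window, which also keeps to canonical starts and so loses HOXA10, gave 3.85% in all, 6.68% in HOXA, 2.35% in HOXB and 5.19% in HOXD. Total counts, not divided by width, gave 4.73% in all, 4.44% in HOXA, 5.36% in HOXB and 5.32% in HOXD. The cause was not tested, apart from what each setting removes by construction. All transcript starts, chosen after seeing the data, gave 16 members, adding HOXB6 and HOXD10. Leaving out the regions over a HAGLR start, also chosen then, gave a HOXD coverage of 4.26%. Of all values for the groups, 77 stayed within 1.5 times or, for counts of 0 and paralog numbers, stayed the same, and 26 did not. The 77 include the counts of 11, 20 and 16 members given above. Of the values for single members 87 stayed within 1.5 times and 28 did not. No paired analysis was possible because the table used holds 1 mean per region, and leaving out a replicate could not be run for the same reason. Unknown depth limits what a missing region means.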
